A study of Mus musculus with 8 samples.

Results

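The collagen genes were examined for binding of GATA2, a zinc finger transcription factor known for holding precursor cells of blood and fat in an immature state. Every protein-coding mouse gene whose symbol is Col, a number, a and a number was included, using the gene table that RefSeq gives for GRCm38.p6 (mm10), which made 44 of the 21631 protein-coding genes on chromosomes 1 to 19 and X. The rule reads the symbol alone. Binding was mapped by chromatin immunoprecipitation and sequencing (ChIP-seq) in 3T3-L1 cells, a mouse fibroblast line committed to the fat lineage, and in C3H10T1/2 cells, a mouse embryonic fibroblast line with the capacity to become fat, muscle, cartilage or bone. Per the labels there were 2 GATA2 ChIP libraries and 2 input libraries without antibody for each line, from cells at passages 4 to 6, and each ChIP library was prepared from DNA pooled over individual immunoprecipitations. Each line is represented here by 1 deposited list of peaks, of 2445 positions in 3T3-L1 and 1557 in C3H10T1/2, so differences between the lines have no replicate check and are given as values without a test. The lists hold positions alone, the read depth behind them is unknown, and with no expression values the labelled lines could not be checked against marker genes.

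Collagens are the main structural proteins of the extracellular matrix. Their chains share a repeat of glycine and other amino acids, wind around each other into a triple helix in the cell, and after secretion assemble into structures that differ between classes. Fibrillar collagens build the fibrils of skin, bone, tendon and cartilage, and fibril-associated collagens (FACITs) sit on the surface of those fibrils. Type IV collagens form the sheet of basement membranes, type VI collagens form beaded filaments around cells and are plentiful in fat tissue, short-chain collagens form lattices, and other members span the cell membrane or lie at basement membranes.

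GATA2 peaks lay inside 7 of the 44 collagen genes in 3T3-L1 and inside 8 in C3H10T1/2, where 2.79% and 2.59% of all protein-coding genes had a peak in the body. The genes in 3T3-L1 were Col14a1, Col23a1, Col28a1, Col8a1, Col4a4, Col15a1 and Col24a1. Those in C3H10T1/2 were Col14a1, Col23a1, Col28a1, Col8a1, Col4a2, Col4a6, Col11a1 and Col18a1, so 4 genes had a peak in both lines, 3 in 3T3-L1 alone and 4 in C3H10T1/2 alone. A peak was given to a gene when its centre lay in the gene body or within 10 kb of it, and every one of these peaks was in the body itself. Of all genes with a peak in that window, whatever their length, 29.6% in 3T3-L1 and 28.8% in C3H10T1/2 had it outside the body only. Over all protein-coding genes, the shares with a peak in that window were 3.96% in 3T3-L1, 3.64% in C3H10T1/2, 1.68% in both, 2.28% in 3T3-L1 alone and 1.96% in C3H10T1/2 alone, against 15.9%, 18.2%, 9.09%, 6.82% and 9.09% of the collagen genes. The share in either line was 5.92%, against 25% (11 of 44).

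Collagen genes are long, and long genes hold more peaks. Their median length was 114 kb, against 17.3 kb for all protein-coding genes, and 23 of the 44 fell in the longest of 10 equally filled length classes (109 to 2390.4 kb). In that class 16.8% of the other genes had such a peak in 3T3-L1 and 15.2% had one in C3H10T1/2. Of the 23 collagen genes in it, 6 and 8 did. Giving each collagen gene the share of other genes of its own length class yielded 4.66 genes in 3T3-L1, where 7 were counted, and 4.25 in C3H10T1/2, where 8 were counted. For the body alone the length classes gave 4.15 and 3.83. These are close to 4.66 and 4.25, so at such lengths a peak outside the body only was rarer than over all genes. In the body or within 10 kb the counts were 1.5 and 1.88 times those of the length classes, a smaller gap than that to the all-gene shares.

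The higher count in C3H10T1/2 depended on peaks narrower than the median of that list. When peaks under the median width of their list were left out (144 bp in 3T3-L1 and 184 bp in C3H10T1/2), 2 collagen genes had one in the body or within 10 kb in C3H10T1/2, Col18a1 and Col28a1, where the length classes gave 2.28. In 3T3-L1 it was 6 genes, where they gave 2.68. Over all genes the same step kept 54.3% of the genes with a C3H10T1/2 peak and 54.7% of those with a 3T3-L1 peak. Of the 9 C3H10T1/2 peaks in collagen genes 3 reached the median width of that list, and of the 16 peaks of 3T3-L1 there 10 did. The cutoffs differ, so the lines are not compared at a like width. C3H10T1/2 peaks in Col23a1 (181 bp), Col4a2 (162 bp) and Col4a6 (144 bp) were left out but reached the 3T3-L1 cutoff.

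Within 100 kb, a collagen gene had a 3T3-L1 peak in 16 cases and a C3H10T1/2 peak in 15, with 7 genes in both counts and 24 in either. Over all protein-coding genes the shares were 13.9% in 3T3-L1, 12.1% in C3H10T1/2, 6.35% in both and 19.6% in either line, against 36.4%, 34.1%, 15.9% and 54.5% of the collagen genes. The length classes gave 9.25 genes in 3T3-L1, 7.76 in C3H10T1/2 and 4.33 in both. With the wider peaks alone the C3H10T1/2 count was 4, where the length classes gave 4.46, and the count in both lines was 3. The 3T3-L1 count was 12, where they gave 5.32. With all peaks, neighbouring collagen genes can share a peak, and counting them once gave 13 in 3T3-L1 and 12 in C3H10T1/2. Giving each peak to its nearest gene alone gave 12 and 11 collagen genes. The median distance from a collagen gene to the nearest peak was 217 kb in 3T3-L1 and 356 kb in C3H10T1/2. It was 408 and 572 kb for the 2006 other genes at or above the median collagen length, and 588 and 743 kb for all genes.

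**Figure D1:**
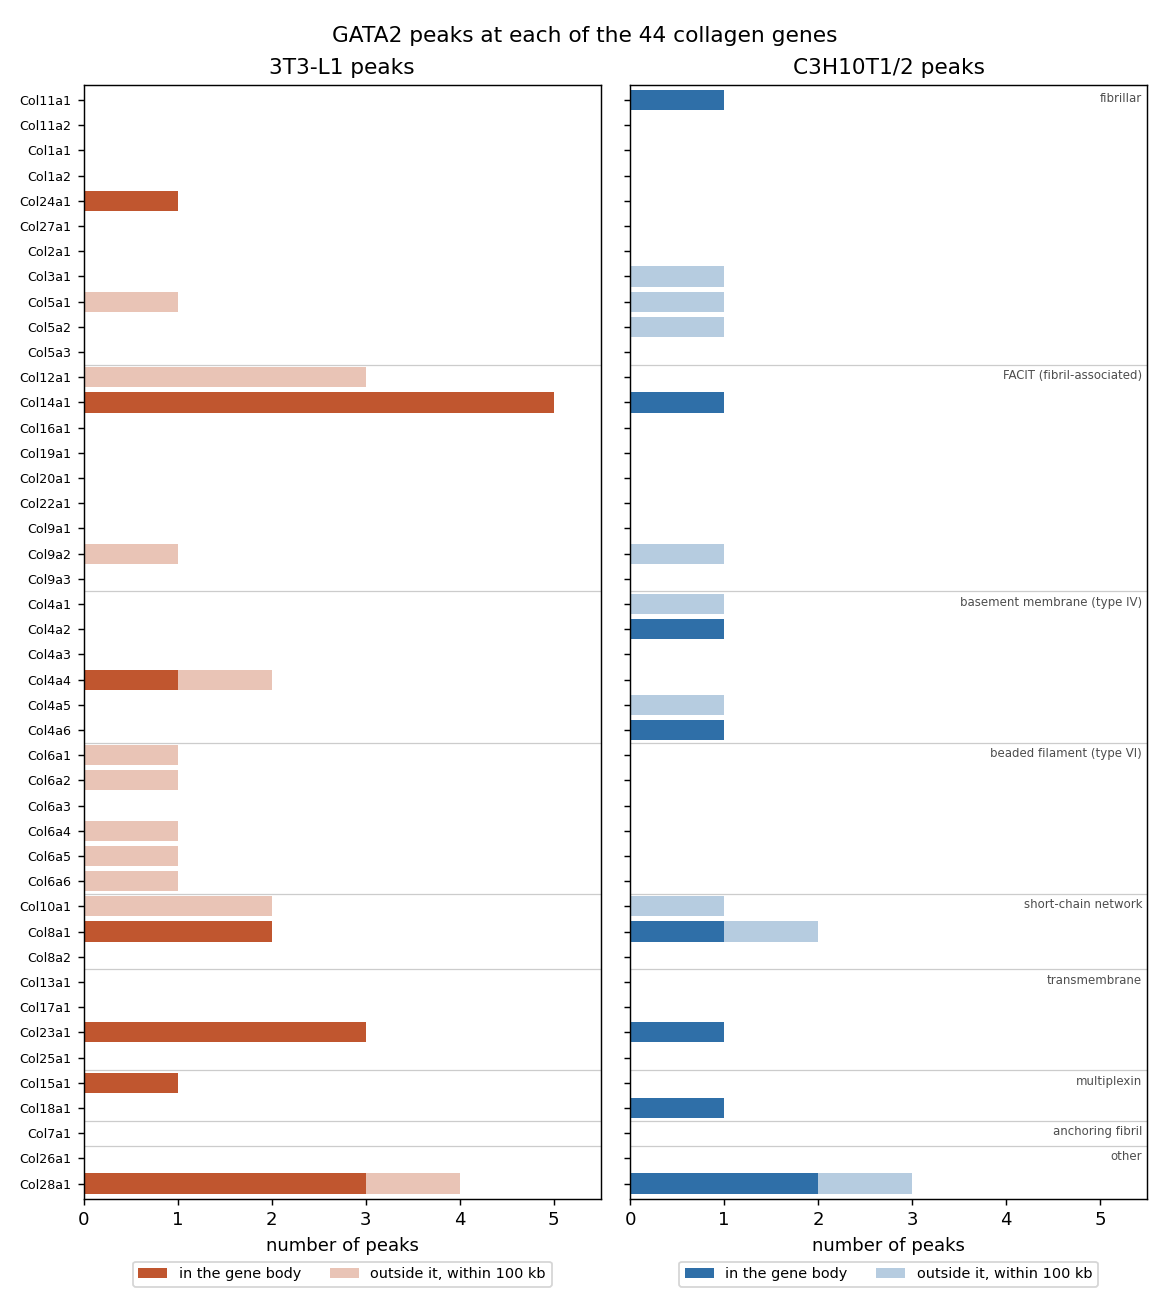
Number of peaks of 3T3-L1 (left) and C3H10T1/2 (right) at each of the 44 collagen genes, grouped by class with class names at the right. Dark bars count peaks in the gene body and light bars those outside it within 100 kb; the 5 dark 3T3-L1 peaks of Col14a1 and the light 3T3-L1 bars at 5 of 6 type VI genes stand beside empty rows for 20 genes.

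**Figure D2:**
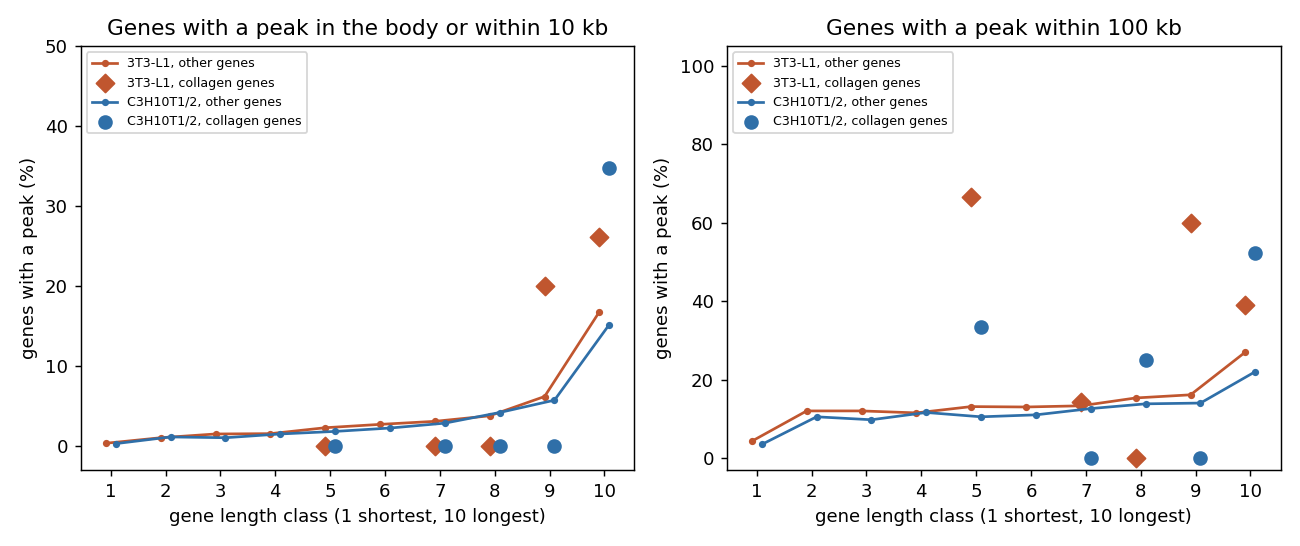
Percent of genes with a peak in the body or within 10 kb (left) and within 100 kb (right), by gene length class, where lines give other protein-coding genes and symbols collagen genes in classes that hold at least 3 of them. In the longest class other genes are at 16.8% (3T3-L1) and 15.2% (C3H10T1/2) in the left panel, and all C3H10T1/2 collagen genes with such a peak, 8 of 23, fall there.

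The body peaks of 3T3-L1 were concentrated in a few genes. Collagen gene bodies together span 5.44 Mb and held 16 peaks of 3T3-L1 and 9 of C3H10T1/2, or 2.94 and 1.65 peaks per Mb. Bodies of the 2006 other genes at or above the median collagen length held 0.846 and 0.703 per Mb. Those of all protein-coding genes held 0.894 and 0.662 per Mb. Col14a1, Col23a1, Col28a1 and Col8a1 had 5, 3, 3 and 2 of the 3T3-L1 peaks, and without these 4 genes, picked here by their values, the remaining 40 had 0.651 and 0.868 per Mb. At least 2 peaks of 3T3-L1 in the body were found in 0.555% of all protein-coding genes, at least 3 in 0.185% and at least 5 in 0.0601%. The length classes gave 1.05, 0.334 and 0.0836 collagen genes, where 4, 3 and 1 were counted. In C3H10T1/2 0.388% of all genes had at least 2, and among collagens it was Col28a1 alone, where the length classes gave 0.778 genes. These 4 genes were also the ones with body peaks in both lines, and in each of them 1 peak of 3T3-L1 overlapped 1 of C3H10T1/2.

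Col14a1 encodes a FACIT that binds fibril surfaces and lies on chromosome 15 (55307644 to 55520803). Its 5 peaks of 3T3-L1 ran from 55347616 to 55347898, 55416114 to 55416225, 55437321 to 55437493, 55465123 to 55465442 and 55468577 to 55468706. They were spread over the gene from 18.8% to 75.5% of its length, counted from the lower coordinate. The single C3H10T1/2 peak (55347677 to 55347800) lay wholly within the first of them, with centres 18.5 bp apart, so the other 4 sites were in 3T3-L1 alone. Among 667 other genes whose length is within 25% of that of Col14a1, 0 had as many 3T3-L1 peaks. Outside dense blocks of peaks, 9 protein-coding genes had 5 or more, and of these Cwc22, at 65.2 kb, was shorter than Col14a1 at 213 kb, while the other 7 were 328 kb or longer. Col14a1 had the highest count of the 44 collagen genes, so its standing is not that of a gene named in advance. The counts of genes of like length for Col28a1, Col23a1 and Col8a1 below also concern genes picked by their values.

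Col28a1 had peaks of both lines at more than 1 place. It encodes a collagen with von Willebrand factor A domains, known from peripheral nerve, and lies on chromosome 6 (7997100 to 8193709). The overlapping pair ran from 8160069 to 8160337 in 3T3-L1 and from 8160121 to 8160420 in C3H10T1/2, about 32.4 kb after the gene's start. The other body peaks were at 8070484 to 8070620 and 8077946 to 8078156 in 3T3-L1 and at 8164643 to 8164873 in C3H10T1/2. A further overlapping pair (8285380 to 8285689 and 8285405 to 8285731) lay 91.8 kb beyond the higher coordinate, inside the neighbouring gene Umad1. Of 757 other genes of like length, 6 had at least 3 peaks of 3T3-L1 in the body and 18 at least 2 of C3H10T1/2.

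Col23a1, which encodes a transmembrane collagen on chromosome 11 (51289679 to 51583925), had an overlapping pair, of 3T3-L1 from 51308343 to 51308555 and of C3H10T1/2 from 51308388 to 51308568. That site is 18.5 kb after the start of the gene. The other 3T3-L1 peaks, at 51482175 to 51482368 and 51485028 to 51485125, lay 192 and 195 kb after the start. Of 459 other genes of like length, 4 had at least 3 peaks of 3T3-L1.

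Col8a1 encodes a short-chain collagen of the network beneath the corneal endothelium and of vessel walls, on chromosome 16 (57624256 to 57754737). Its overlapping pair was narrow, at 107 bp in 3T3-L1 (57686785 to 57686891) and 101 bp in C3H10T1/2 (57686804 to 57686904), with 88 bp in common. It lay near the middle of the gene, 67.9 kb after the start. A 3T3-L1 peak at 57675667 to 57675876 lay 79 kb after that start, and a C3H10T1/2 peak at 57532262 to 57532410 lay 91.9 kb below the gene, inside Cmss1 and Filip1l. Of 1200 other genes of like length, 14 had at least 2 peaks of 3T3-L1 in the body.

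**Figure D3:**
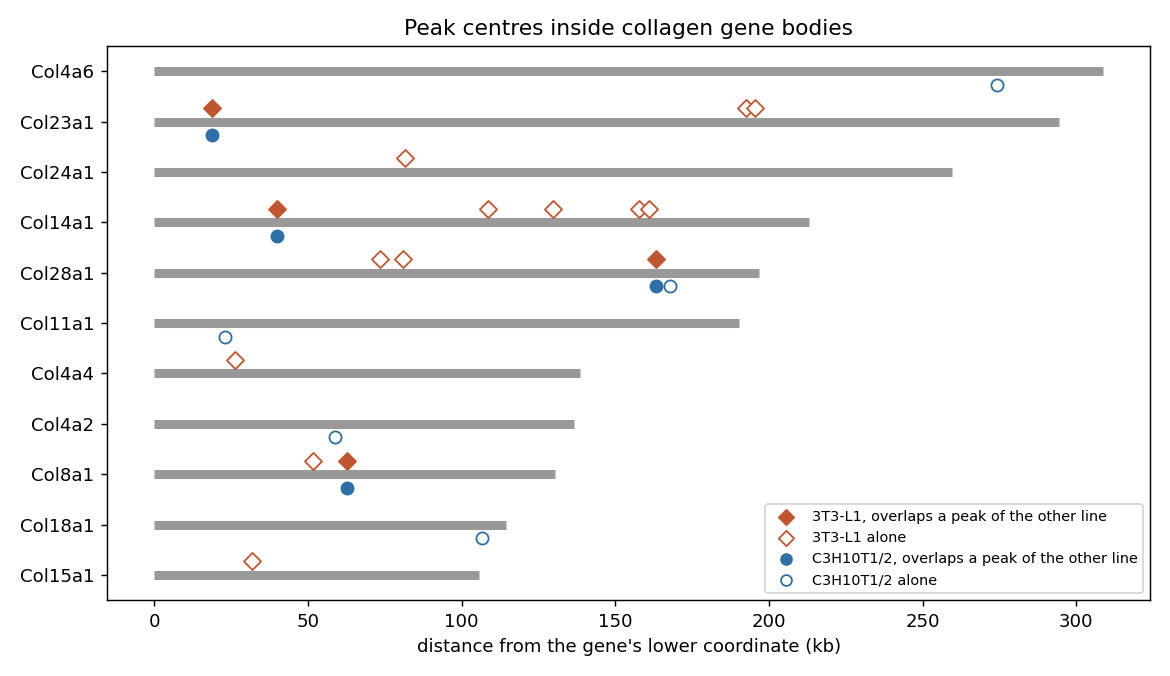
Centres of peaks inside the 11 collagen genes that hold any, drawn to scale as distance in kb from the lower coordinate of each gene, with 3T3-L1 above (diamonds) and C3H10T1/2 below (circles) each gene. Filled symbols overlap a peak of the other line, and they pair up in Col23a1, Col14a1, Col28a1 and Col8a1.

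Body peaks of 3T3-L1 alone lay in Col24a1, Col15a1 and Col4a4, 1 in each. Col24a1, a minor fibrillar collagen gene on chromosome 3, had its peak at 145374165 to 145374263, and the nearest C3H10T1/2 peak was 133 kb from the gene. Col15a1, a multiplexin gene of the basement membrane zone on chromosome 4, had a peak of 245 bp at 47239207 to 47239451, 31.3 kb after its start. For Col15a1 the nearest C3H10T1/2 peak was 6214 kb away. Col4a4, whose chain is part of the kidney filter's basement membrane, had a peak at 82474594 to 82474775 on chromosome 1, and a further 3T3-L1 peak lay 19.1 kb below the gene in Rhbdd1.

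Body peaks of C3H10T1/2 alone lay in Col11a1, Col18a1, Col4a2 and Col4a6, again 1 in each. Col11a1, a fibrillar collagen gene of cartilage on chromosome 3, had its peak at 114053488 to 114053620, 23 kb after its start, and its nearest 3T3-L1 peak at 1568 kb. Col18a1, whose product yields the fragment endostatin, had its peak at 77158882 to 77159068 on chromosome 10. That peak was 7.55 kb after an annotated start, the closest of any body peak whose gene start is in the promoter table. For the 11 peaks of 3T3-L1 with a known start the distance was 18.5 to 195 kb. Among other genes within 25% of the length of these 7 genes with 1 body peak, 6.87% (Col15a1) to 19.2% (Col24a1) had at least 1 peak of the line in question.

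With all peaks counted, type IV and type VI genes divided between the lines in opposite ways. Of the 6 type VI genes, 5 had a 3T3-L1 peak within 100 kb and 0 a C3H10T1/2 peak. Of the 6 type IV genes, 1 had a 3T3-L1 peak and 4 a C3H10T1/2 peak. Beside the all-gene shares of 7.54% with peaks in 3T3-L1 alone and 5.7% in C3H10T1/2 alone, these are 5 genes and 4 genes of 6. However, the genes of each class are neighbours that share peaks, so the counts rest on 3 peaks and 2 peaks. All type IV genes are in the longest length class, where 27.1% of other genes had a 3T3-L1 peak within 100 kb and 22.1% a C3H10T1/2 peak. The type VI genes are in length classes 5, 7, 9 and 10, where 13.2% to 27.1% of other genes had a 3T3-L1 peak. With peaks of at least the median width of their list alone, 2 type VI genes had a 3T3-L1 peak and 0 a C3H10T1/2 peak. The 2 genes were Col6a1 and Col6a2, by the same peak. Type IV then had 1 gene with a 3T3-L1 peak (Col4a4) and 0 with a C3H10T1/2 peak, so the opposite division was not seen at these cutoffs. The cutoffs differ, at 144 bp in 3T3-L1 and 184 bp in C3H10T1/2. The C3H10T1/2 peaks in Col4a2 (162 bp) and Col4a6 (144 bp) were left out but reached the 3T3-L1 cutoff, so the loss depends on the cutoff of each list. Whether the classes differ was not tested.

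A 3T3-L1 peak of 398 bp (chromosome 10, 76664887 to 76665284) lay between Col6a2 and Col6a1, which encode chains of the main type VI filament, 41.5 kb before the start of Col6a2 and beyond the far end of Col6a1. A peak at 105845055 to 105845177 on chromosome 9 lay between Col6a6 and Col6a5, 17 kb before the start of Col6a6. Another, at 106112755 to 106112895, lay 16.1 kb before the start of Col6a4. The nearest C3H10T1/2 peak was 433 kb or more from Col6a1 and Col6a2 and 1605 kb or more from Col6a4, Col6a5 and Col6a6. Col6a3, the remaining type VI gene, had its nearest peaks at 602 kb in 3T3-L1 and 245 kb in C3H10T1/2.

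Type IV genes are arranged head to head in pairs. The C3H10T1/2 peak in Col4a2 (chromosome 8, 11371509 to 11371670) lay 58.8 kb after the start of Col4a2 and, since the starts of the pair adjoin, as far before that of Col4a1. These genes encode the chains found in nearly all basement membranes. The peak in Col4a6 (chromosome X, 141439536 to 141439679) lay 34.5 kb after the start of Col4a6 and 35.8 kb from the body of Col4a5. Their widths, 162 and 144 bp, were below the median of the C3H10T1/2 list.

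**Figure D4:**
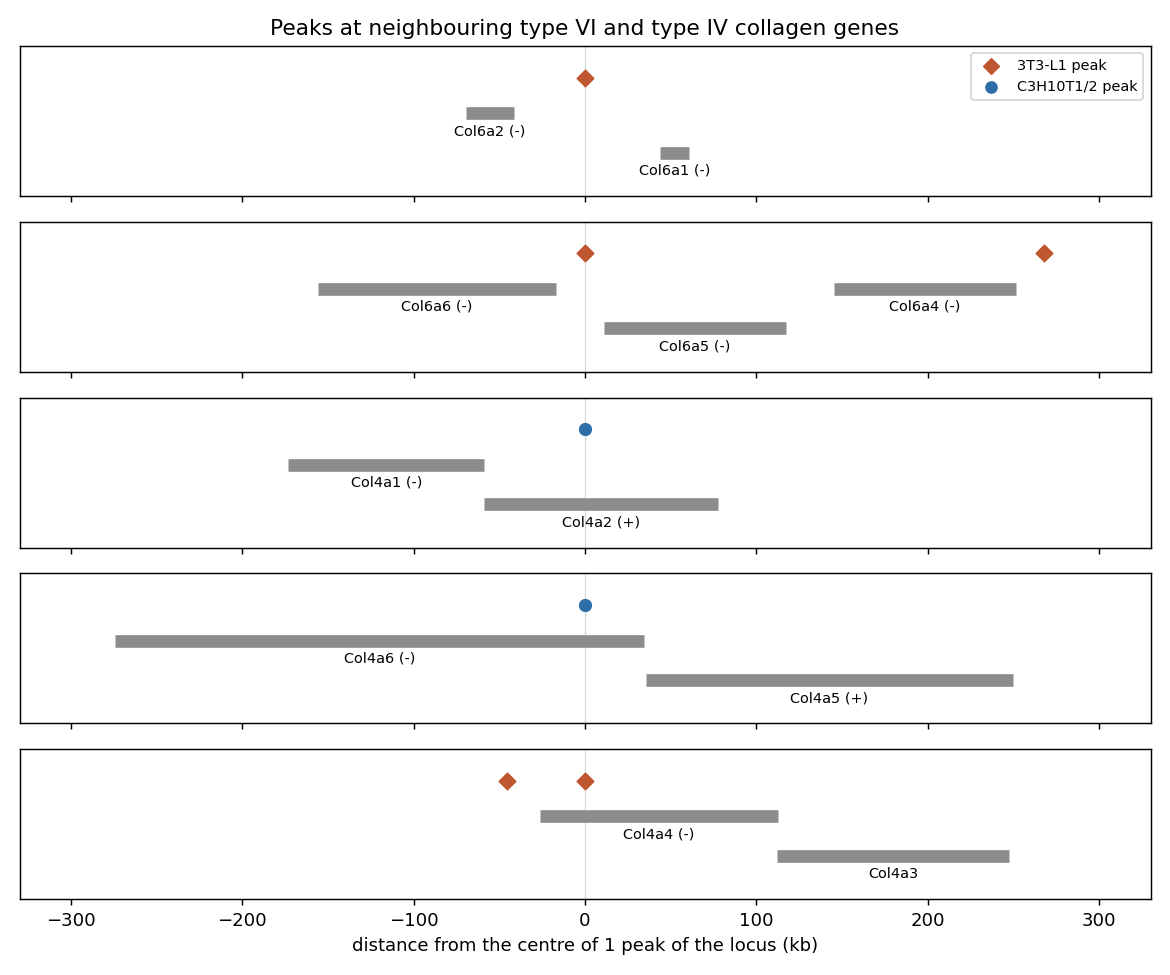
Genes (grey bars, strand in brackets where the promoter table gives it) and peaks within 100 kb of them at neighbouring type VI genes (upper pair of panels) and type IV genes (other panels), as distance in kb from the centre of 1 peak of each locus. The type VI loci hold 3 peaks of 3T3-L1 and 0 of C3H10T1/2, and the Col4a1 and Col4a5 pairs hold 1 C3H10T1/2 peak each.

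Of the 11 fibrillar collagen genes, 2 had a 3T3-L1 peak within 100 kb and 4 a C3H10T1/2 peak, from 2 and 3 distinct peaks. The 3T3-L1 count is near the all-gene share of 13.9%, and the C3H10T1/2 count is above the all-gene share of 12.1%. Of those 4 genes, Col5a1, Col5a2 and Col11a1 are in the longest length class, where 22.1% of other genes had a C3H10T1/2 peak. At the width cutoffs of 144 bp in 3T3-L1 and 184 bp in C3H10T1/2, the counts were 1 gene (Col5a1) and 0 genes. These counts are not at a like width. The C3H10T1/2 peak near Col3a1 and Col5a2 (148 bp) and that near Col5a1 (153 bp) were left out but reached 144 bp. The one in Col11a1 (133 bp) did not. The 3T3-L1 peak near Col5a1 (159 bp) was below 184 bp. Col3a1, a gene of skin and vessel fibrils, had a C3H10T1/2 peak 12.1 kb before its start (chromosome 1, 45299330 to 45299477), and that peak also lay 74.9 kb from its neighbour Col5a2. Col5a1, whose product controls how fibrils begin, had separate peaks upstream on chromosome 2, at 27793608 to 27793766 in 3T3-L1 and, for C3H10T1/2, 27835051 to 27835203, which were 92.7 and 51.3 kb before the start. The 3T3-L1 peak was nearer to Rxra, a retinoid receptor gene, at 30.4 kb. Col1a1 and Col1a2, which encode the chains of type I collagen in bone, tendon and skin, had none nearby. The nearest peaks to Col1a1 were 589.6 kb away in 3T3-L1 and 589.5 kb in C3H10T1/2, and those to Col1a2 were 1012 and 1304 kb away. For Col2a1, the fibrillar gene of cartilage, they were at 161 kb in each.

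Peaks outside the body of the remaining genes were at Col12a1, Col9a2 and Col10a1. Col12a1, a FACIT gene (chromosome 9, 79598987 to 79721141), had on its lower side 3 peaks of 3T3-L1, at 79502158 to 79502326, 79549359 to 79549527 and 79551748 to 79551918. Col12a1 was the nearest gene to each of them, at 47.2 to 96.7 kb, and the nearest C3H10T1/2 peak was 119.7 kb from the gene. At Col9a2, which encodes a FACIT chain of cartilage, the peaks of the lines overlapped over 233 bp (120986519 to 120986760 and 120986528 to 120986763 on chromosome 4) in the body of Smap2. At Col10a1, the marker gene of hypertrophic cartilage cells, they overlapped over 237 bp (34480204 to 34480441 and 34480205 to 34480455 on chromosome 10), nearer to the kinase gene Frk than to Col10a1. A further 3T3-L1 peak there, at 34483231 to 34483394, was 0.0875 kb from Frk.

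No peak of either line lay within 100 kb of 20 collagen genes. By class these were 6 fibrillar genes (Col1a1, Col1a2, Col2a1, Col5a3, Col11a2 and Col27a1), 6 FACIT genes (Col9a1, Col9a3, Col16a1, Col19a1, Col20a1 and Col22a1) and 3 transmembrane genes (Col13a1, Col17a1 and Col25a1), with Col4a3, Col6a3, Col8a2, Col7a1 and Col26a1. Their nearest peak of either line was 112 kb (Col4a3) to 2215 kb (Col5a3) away, with a median of 620.0 kb. Long genes were among them: Col25a1, a transmembrane collagen gene of neurons, is 419.5 kb long, and Col22a1, a FACIT gene of tissue junctions, is 355 kb long.

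Of 28 distinct peaks of 3T3-L1 within 100 kb, 7 overlapped a C3H10T1/2 peak (25%, 95% Clopper-Pearson interval 10.7 to 44.9), and 22.4% of the whole list did. Of 15 peaks of C3H10T1/2, 7 were shared (46.7%, 21.3 to 73.4), against 34.7% of that list. Intervals cover counting error over peaks only. The 7 shared pairs reached 6 collagen genes, the 4 with shared body peaks, Col9a2 and Col10a1. Near collagen genes the median width was 172 bp in 3T3-L1, where the list as a whole had 144 bp, and 162 bp in C3H10T1/2, where it had 184 bp.

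No peak overlapped a collagen promoter. The RefSeq promoter table (GRCm38.p6) covered 35 of the 44 genes with 38 starts, each with 250 bases before and 50 after the start. Of all 21045 starts of protein-coding genes in it, 33 (0.157%) overlapped a 3T3-L1 peak and 40 (0.190%) a C3H10T1/2 peak, so 0 of 38 is near the background. The usual core that GATA factors recognise was searched on both strands of the 300 bases, as AGATAA, the form with a final G, which reads AGATAG, the form with an initial T, which reads TGATAA, and the form with both changes, which reads TGATAG. They were present in 6 of the 35 collagen genes (17.1%), namely Col3a1, Col4a6, Col11a2, Col17a1, Col27a1 and Col28a1, and in 29.3% of the 17274 protein-coding genes with a promoter. Median GC content was 59.8% for the collagen starts and 56.7% for all protein-coding starts. A match is a description of the letters, not a bound site.

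A peak of either line lay within 100 kb of 24 of the 44 collagen genes (54.5%). Of the 6 genes with these letters, Col28a1, Col4a6 and Col3a1 had one, which is near that share. Their 250 bases before the start are shown 5′ to 3′ on the gene's strand to place the letters, in capitals, beside peaks that lay 27.9, 34.5 and 12.1 kb from the start in C3H10T1/2. The windows are chr6:8192618-8192867 (minus strand), chrX:141474077-141474326 (minus strand) and chr1:45311288-45311537 (plus strand).
Col28a1: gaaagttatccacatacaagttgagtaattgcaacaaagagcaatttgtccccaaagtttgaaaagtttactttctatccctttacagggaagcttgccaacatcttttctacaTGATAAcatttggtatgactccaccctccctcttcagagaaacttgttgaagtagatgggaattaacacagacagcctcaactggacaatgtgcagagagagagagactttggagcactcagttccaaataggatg
Col4a6: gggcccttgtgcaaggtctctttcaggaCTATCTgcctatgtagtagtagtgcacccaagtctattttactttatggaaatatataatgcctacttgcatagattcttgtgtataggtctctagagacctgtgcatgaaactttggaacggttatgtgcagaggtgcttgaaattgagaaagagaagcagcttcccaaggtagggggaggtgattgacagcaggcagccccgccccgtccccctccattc
Col3a1: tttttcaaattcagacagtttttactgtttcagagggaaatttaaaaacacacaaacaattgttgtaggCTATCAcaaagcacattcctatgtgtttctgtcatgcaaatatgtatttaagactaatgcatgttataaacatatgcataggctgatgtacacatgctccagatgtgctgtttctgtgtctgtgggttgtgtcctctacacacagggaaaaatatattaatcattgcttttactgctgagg
In Col28a1 TGATAA began at base -136 from the start. In Col4a6 CTATCT, which is AGATAG on the other strand, began at -222 and again at 22, after the start. In Col3a1 CTATCA, which is TGATAG on the other strand, began at -181. The promoters of Col8a1 and Col23a1, the other genes with a shared body peak in the table, held none of these letters. The sequence under the peaks themselves was not used here.

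Genes that make, cut, bind or sense collagen were counted in the same way. In the body or within 10 kb, 1 of 20 genes for folding, modification and secretion had a 3T3-L1 peak and 0 a C3H10T1/2 peak, near the all-gene shares. It was P4ha2, a prolyl hydroxylase subunit gene, with a peak 8.46 kb from the gene. Of 13 genes for procollagen processing and cross-linking the counts were 1 and 0, and the gene was Adamts2, the procollagen amino-propeptidase, with a 3T3-L1 peak at 50669653 to 50669833 on chromosome 11. The length classes gave 1.03 genes in 3T3-L1 and 0.936 in C3H10T1/2, close to the counts. Collagen breakdown genes gave 0 and 1 of 8, with a C3H10T1/2 peak in Mmp2, a gelatinase gene, at 92847407 to 92847646 on chromosome 8, where the length classes gave 0.168 and 0.149 genes. Genes of fibril-binding matrix proteins gave 1 and 0 of 12, with a 3T3-L1 peak in Dcn, the decorin gene, at 97484101 to 97484374 on chromosome 10, where they gave 0.372 and 0.333.

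Collagen receptors had 2 of 10 genes with a peak in each line, where the length classes gave 0.71 in 3T3-L1 and 0.652 in C3H10T1/2. Mrc2, an endocytic receptor that takes up collagen, had peaks of both lines in its body on chromosome 11, 66 bp wide in 3T3-L1 (105313275 to 105313340) and lying within a C3H10T1/2 peak of 280 bp (105313227 to 105313506). Itga1, an integrin chain that binds type IV collagen, had a C3H10T1/2 peak at 115094084 to 115094259 on chromosome 13. Itga10, an integrin chain of cartilage cells, had a 3T3-L1 peak at 96662857 to 96662937 on chromosome 3.

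Proteins with a collagen domain but another name had a 3T3-L1 peak in that window at 1 of 23 genes and a C3H10T1/2 peak at 3, where the length classes gave 1.05 and 0.982. Scara5, a scavenger receptor gene, had 2 body peaks in C3H10T1/2 and the collectin gene Colec10 had 1. Colec12, a scavenger receptor collectin gene, had 2 body peaks in 3T3-L1 and 1 in C3H10T1/2, which did not overlap. Within 100 kb the lists ranged from 0 of 8 genes (breakdown, 3T3-L1) to 5 of 12 (fibril-binding proteins, each line), where the length classes gave 0.997 and, for the latter, 1.63 in 3T3-L1 and 1.42 in C3H10T1/2. Several of these fibril-binding genes are neighbours, and the 5 genes stand for 3 loci in each line, with Dcn, Lum and Kera as 1 locus in 3T3-L1, and Dcn with Lum and Aspn with Ogn as 1 locus each in C3H10T1/2. Within 100 kb, folding genes gave 5 of 20 in 3T3-L1 and 1 in C3H10T1/2, where the length classes gave 2.97 and 2.6. Processing genes gave 2 and 2 of 13 (2.38 and 2.01), and receptors 4 and 4 of 10 (1.74 and 1.49). Collagen-domain genes gave 2 and 5 of 23 (3.5 and 3.08). The all-gene shares were 13.9% and 12.1%.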

How the data were processed

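GATA2 ChIP-seq peaks were analysed in 1 deposited list per cell line, and the labels name 8 libraries in 4 groups of 2. The deposited values are start and end positions in bp, without a score. The submitters' processing notes name mm10 as the build and list CASAVA 1.8, SAMtools, MACS2, Bowtie2 and bedtools without their settings. The pooling of libraries, the use of input and any removal of peaks by the authors are not given in the sources used here, and each can change how many peaks a list holds and how wide they are. Positions were counted from 1 and set against the RefSeq gene table of GRCm38.p6 in Python 3.11.15 with pandas 2.3.3. A peak belonged to a gene when its centre lay in the body or within 10 or 100 kb of it. Gene starts came from the promoter table. All-gene shares and shares in 10 length classes, excluding collagen genes, were computed directly with no random draws, and counting was checked on simulated peaks. Peaks of the lists were shared when they had at least 1 bp in common. All collagen genes and all pathway genes with a peak within 10 kb were named. Peak density and the comparison with genes of like length (within 25%) were added after the data were seen. Exon positions and a planned description of protein chains were not used here. The members and lists were chosen with earlier results of these data known. Other settings were the peak position rule, dense blocks (at least 8 peaks with gaps of at most 20000 bp), width, list length, neighbours, nearest gene, overlap and number of classes.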

Additional observations from a re-analysis of the deposited data

How the results depend on the processing

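With peaks of at least the median width alone, the number of collagen genes with a C3H10T1/2 peak in the body or within 10 kb was 2 in place of 8, that within 100 kb was 4 in place of 15, that within 100 kb in both lines was 3 in place of 7, and 6 distinct C3H10T1/2 peaks lay within 100 kb in place of 15. The cause was not tested. The other 43 recomputed values stayed within 1.5 times the reported ones. They covered any overlap with the window, leaving out dense blocks, the widest 3T3-L1 peaks in the number of the C3H10T1/2 list, neighbours counted once, the nearest gene alone, stricter or looser sharing, and 5 or 20 length classes. Some of them could not move. The collagen genes had 0 dense-block peaks near them, so leaving out such blocks could change nothing. Taking the widest 3T3-L1 peaks leaves the C3H10T1/2 list as it was. No paired analysis was possible because the deposited lists carry no replicate, and leaving out a replicate was not possible for the same reason. Read depth is unknown, so weak sites in one line may have gone uncalled.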
